A study of Homo sapiens with 414 samples.

Results

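Condensins are the protein machines that fold chromosomes for division, and the transcripts of their 8 subunits (SMC2, SMC4, NCAPD2, NCAPG, NCAPH, NCAPD3, NCAPG2 and NCAPH2) are described here in single LNCaP cells with and without SULT2B1 knockdown. The 8 genes were taken from the 36135 genes of the table as the subunits of condensin I and condensin II. They were picked by complex membership, but with the difference between knockdown and control in these libraries in view, in which NCAPG2 had one of the largest falls. That difference is therefore given as a description and supports nothing about the family, whereas the comparison of cells by their mitotic markers was not used in the choice.

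LNCaP is a prostate carcinoma cell line that responds to androgen. The control cells received a non-targeting siRNA from Dharmacon and the knockdown cells an siRNA against SULT2B1, a sterol sulfotransferase gene, from IDT, so the arms differ in supplier as well as in target. Both arms were harvested 48 h after transfection, loaded on a Fluidigm C1 device that captures single cells, and present in each of 3 batches. Of the 414 samples of the series, 401 cells were used. Control had 209 of them, with 76, 66 and 67 per batch, and 192 were knockdown, with 66, 65 and 61 per batch.

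Each condensin holds the same pair of ATPase subunits, SMC2 and SMC4, whose coiled-coil arms form a ring. Condensin I adds the kleisin NCAPH, which closes the ring, and the HEAT-repeat subunits NCAPD2 and NCAPG, whereas condensin II adds the kleisin NCAPH2 and the HEAT-repeat subunits NCAPD3 and NCAPG2. Condensin II is nuclear through the cell cycle and starts compaction in prophase, and condensin I reaches chromosomes after the nuclear envelope breaks down, so dividing cells depend on both.

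A cell held between 169244 and 2353816 reads in genes (median 1150826) and between 3058 and 11061 genes with a read. The 6 libraries summed per arm and batch held from 71630108 to 84359044 reads. SULT2B1 itself had 152, 109 and 332 reads in control batches 1, 2 and 3, against 13, 21 and 0 in those of the knockdown. All 9 luminal prostate markers had reads in both arms, with summed levels (in CPM, counts scaled by the total of a library) of 4627 to 6023 in the control and 2736 to 4123 in the knockdown libraries. Summed markers of basal, neuroendocrine, mesenchymal and blood or endothelial cells did not pass 11.5 CPM in any library, and among them CD14 was at 0 in both arms, PTPRC at 0 in control and CDH5 at 0 in knockdown. Over 20% of the reads were mitochondrial in 35 control cells and 8 knockdown cells. The batch served as the replicate. Since no label says that the batches were cultured separately, p-values here reflect a spread between batches that may be technical.

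On GRCh38, with GENCODE 29 gene models, the shared subunits are SMC2 (ENSG00000136824, chromosome 9, 104094260 to 104141417, plus strand) and SMC4 (ENSG00000113810, chromosome 3, 160399274 to 160434962, plus strand). Condensin I genes are NCAPD2 (ENSG00000010292, chromosome 12, 6493356 to 6531955, plus strand), NCAPG (ENSG00000109805, chromosome 4, 17810902 to 17844862, plus strand) and NCAPH (ENSG00000121152, chromosome 2, 96335787 to 96373845, plus strand). Condensin II genes are NCAPD3 (ENSG00000151503, chromosome 11, 134150119 to 134225454, minus strand), NCAPG2 (ENSG00000146918, chromosome 7, 158631311 to 158704829, minus strand) and NCAPH2 (ENSG00000025770, chromosome 22, 50508216 to 50523472, plus strand). All 8 are protein coding. On the opposite strand, SMC4 overlaps IFT80 and TRIM59, NCAPD2 overlaps MRPL51, NCAPG overlaps LCORL, and NCAPD3 overlaps JAM3 and VPS26B. No source used here says whether the counting used strand, so reads of these 4 genes and their antisense neighbours cannot be told apart. The other 4 genes overlap no annotated gene.

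Most of the family, 6 of the 8 genes, shares a short promoter sequence that the choice of genes did not use. In RefSeq promoter windows (GRCh38.p14, 250 bases before to 50 after each annotated start), the letters TTTGAA, or TTCAAA on the other strand, were found for 6 of the 8 genes, against 18.2% of 27305 genes and 15.2% of 35116 windows. NCAPH2 had no window there, so it was not searched. TTTGAA is the core of the cell cycle genes homology region, an element known from promoters of genes expressed in G2 and mitosis. The 6 stretches are shown because they carry this match, which is in capitals, read 5′ to 3′ on the strand of the gene. They lie at chr9:104094294-104094323 (SMC2, plus), chr3:160399563-160399592 (SMC4, plus), chr12:6493945-6493974 (NCAPD2, plus), chr4:17810932-17810961 (NCAPG, plus), chr11:134223953-134223982 (NCAPD3, minus) and chr7:158704755-158704781 (NCAPG2, minus).
SMC2: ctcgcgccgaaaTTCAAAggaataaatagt
SMC4: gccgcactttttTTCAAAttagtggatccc
NCAPD2: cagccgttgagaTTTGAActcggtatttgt
NCAPG: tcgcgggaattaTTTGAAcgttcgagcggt
NCAPD3: gcgggagcgagcTTTGAAagttgagcacgg
NCAPG2: ccggcgggtgcgTTTGAAtctggtccg

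In SMC2 and in NCAPD3, where the match is in a second annotated start's window, the match ran from base -3 to base 3, counted from the start with no base 0. It lay at bases -75 to -70 in SMC4, -145 to -140 in NCAPD2, -35 to -30 in NCAPG and 36 to 41 in NCAPG2. The letters CCAAT, read as ATTGG on the other strand, are the core of the site bound by the factor NF-Y, and were found in 3 of the 8 genes, against 39.7% of genes and 34.6% of windows. NCAPD2 had 4 such matches, NCAPD3 had 2 and NCAPH had 1. These are matches of letters and not measured binding, and the window of NCAPH holds no TTTGAA. NCAPH2, with no window, was searched for neither set of letters.

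In control cells the subunits stood at unequal levels, which can be compared between genes only per length (CPM per kilobase of exon). SMC2 had the highest mean, 25.6 ± 6.97 CPM per kilobase (SD, n = 3), followed by NCAPG at 15.0 ± 6.51, NCAPH at 13.6 ± 5.60 and SMC4 at 12.2 ± 2.02. Next came NCAPD2 at 10.1 ± 2.51 CPM per kilobase, NCAPG2 at 8.24 ± 1.85, NCAPD3 at 7.56 ± 2.35, and NCAPH2, the condensin II kleisin, at 1.54 ± 0.674. Each of these genes down to NCAPD3 overlapped the next in the range of its 3 libraries, and NCAPH2 stood apart at the bottom. In knockdown cells SMC2 was again highest, at 10.6 CPM per kilobase, and NCAPH2 lowest, at 0.812, while NCAPG2 was next to lowest at 1.53.

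The contrast of the siRNA arms is given next, as a description. Every subunit had a lower mean in the knockdown libraries, and for 7 of the 8 all 3 knockdown libraries lay below all 3 control libraries, which also held for 8.1% of all genes tested. NCAPG2 stood lowest against control, and NCAPH2 was the 1 subunit whose arms overlapped. In summed libraries, fewer cells that express a gene and less of its RNA per cell cannot be told apart.

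Of the shared subunits, SMC2 was at 172, 208 and 118 CPM in control batches 1, 2 and 3 and at 86.1, 50.7 and 68.0 CPM in knockdown. SMC4 was at 97.6, 122 and 89.3 CPM in control and at 63.0, 24.8 and 57.4 CPM in knockdown. Both were highest in control batch 2 and lowest in knockdown batch 2, and neither gene's arms overlapped. The log2 fold changes were -1.36 for SMC2 (SE 0.269, edgeR adjusted p = 0.0815) and -1.16 for SMC4 (SE 0.343, edgeR adjusted p = 0.194).

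Among the condensin I subunits, NCAPD2 was at 66.1, 81.7 and 49.1 CPM in control and at 31.6, 19.4 and 32.5 CPM in knockdown. NCAPG was at 67.9, 109 and 45.4 CPM in control and at 37.8, 4.50 and 27.4 CPM in knockdown. The kleisin NCAPH was at 59.9, 49.4 and 24.2 CPM in control and at 22.8, 13.5 and 12.4 CPM in knockdown. The arms stayed apart for all 3 genes, but the gap was narrow for NCAPH, whose control batch 3 was close to knockdown batch 1, and NCAPG spread most of the 3, with a very low library in knockdown batch 2. The log2 fold changes were -1.31 for NCAPD2 (SE 0.283, edgeR adjusted p = 0.102), -1.74 for NCAPG (SE 0.702, edgeR adjusted p = 0.340) and -1.55 for NCAPH (SE 0.411, edgeR adjusted p = 0.155).

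Among the condensin II subunits, NCAPD3 was at 78.0, 84.3 and 44.4 CPM in control and at 27.7, 37.8 and 31.4 CPM in knockdown. NCAPG2 was at 61.2, 68.2 and 43.2 CPM in control and at 15.4, 10.1 and 6.56 CPM in knockdown. NCAPH2 was at 3.16, 7.25 and 4.17 CPM in control and at 4.07, 0.293 and 3.33 CPM in knockdown. On the log2 scale NCAPG2 had the widest gap between the arms, and the arms of NCAPH2 overlapped at the lowest mean of the family. The log2 fold changes were -1.18 for NCAPD3 (SE 0.280, edgeR adjusted p = 0.125), -2.51 for NCAPG2 (SE 0.361, edgeR adjusted p = 0.0317) and -0.98 for NCAPH2 (SE 0.873, edgeR adjusted p = 0.724).

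**Figure D1:**
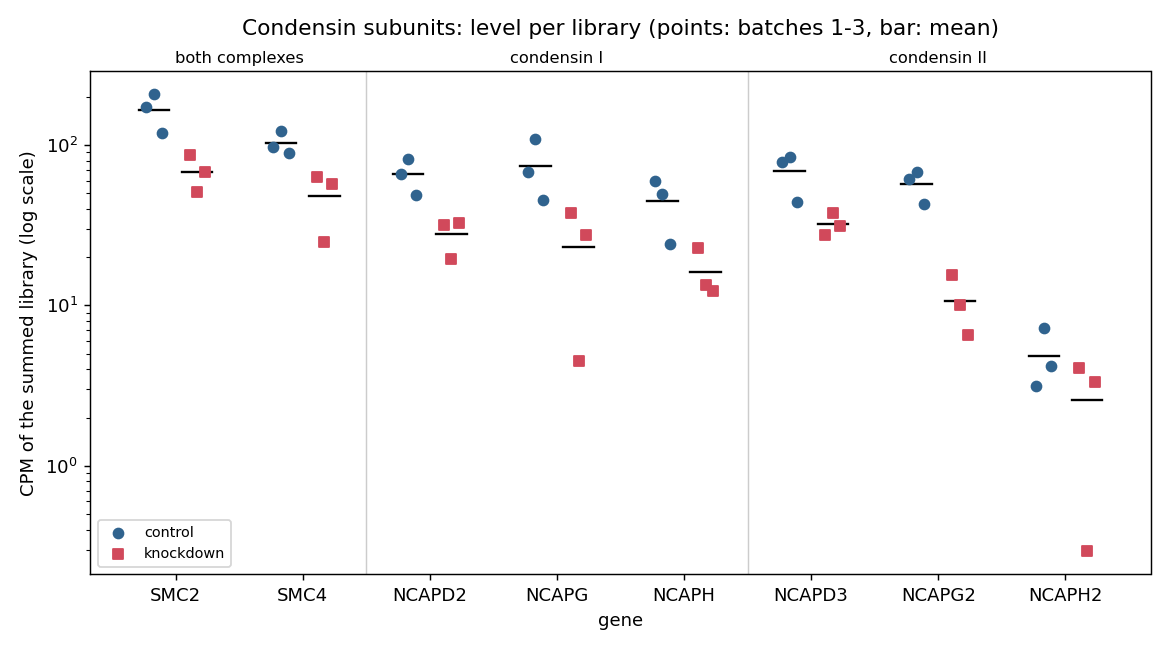
Level of each subunit (CPM of the summed library, log axis) in the 3 control libraries (circles) and 3 knockdown libraries (squares), with bars at the mean. The arms do not overlap for 7 of the 8 genes, and NCAPG2 has the widest gap on this log axis.

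NCAPG2 was thus the 1 subunit past an adjusted p of 0.05 in the edgeR fit, in which 0.384% of 20326 genes passed as lower and 0.394% as higher, and 13.5% had an unadjusted p under 0.05. With batch as a block, its edgeR adjusted p was 0.0535, and leaving out any 1 of the 6 libraries gave an edgeR adjusted p of 0.0512 to 0.146. DESeq2 called 6 subunits (and 5.39% of the genes it tested, in either direction), a fit giving each cell equal weight called 7 (6.51%), and no filter on low counts gave 3 (0.862%).

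The share of cells with a read was lower on average in the knockdown arm for all 8 subunits. SMC2 had a read in 91.3% ± 4.11 of control cells and 56.8% ± 6.56 of knockdown cells (mean of batches, SD, n = 3), and SMC4 in 84.5% ± 5.25 and 56.2% ± 4.17. NCAPD2 was found in 73.8% ± 4.49 and 55.5% ± 10.2, NCAPG in 60.8% ± 16.5 and 26.0% ± 8.96, and NCAPH in 53.1% ± 6.45 and 30.2% ± 3.68. For condensin II, the shares were 75.9% ± 7.57 and 63.0% ± 5.46 for NCAPD3, 68.0% ± 10.3 and 30.3% ± 2.55 for NCAPG2, and 28.8% ± 2.67 and 14.7% ± 10.4 for NCAPH2. All knockdown batches were below all control batches for 7 of the 8 genes (5.85% of all genes), with NCAPD3 the exception.

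Within batches, NCAPG2 had a read in 51 of 76, 52 of 66 and 39 of 67 control cells and in 20 of 66, 18 of 65 and 20 of 61 knockdown cells. The exact Clopper-Pearson 95% intervals ran from 45.5% at their lowest to 87.9% at their highest in control, and from 17.3% to 46.0% in knockdown, so they met only in the narrow range around the lowest control bound. Amplified reads are not independent molecules, so these intervals cover counting error only. After each cell was thinned to 100000 reads, the shares of NCAPG2 were 54.8% ± 10.6 and 19.7% ± 3.18, and all 8 genes had knockdown batches below control batches (6.21% of all genes).

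**Figure D2:**
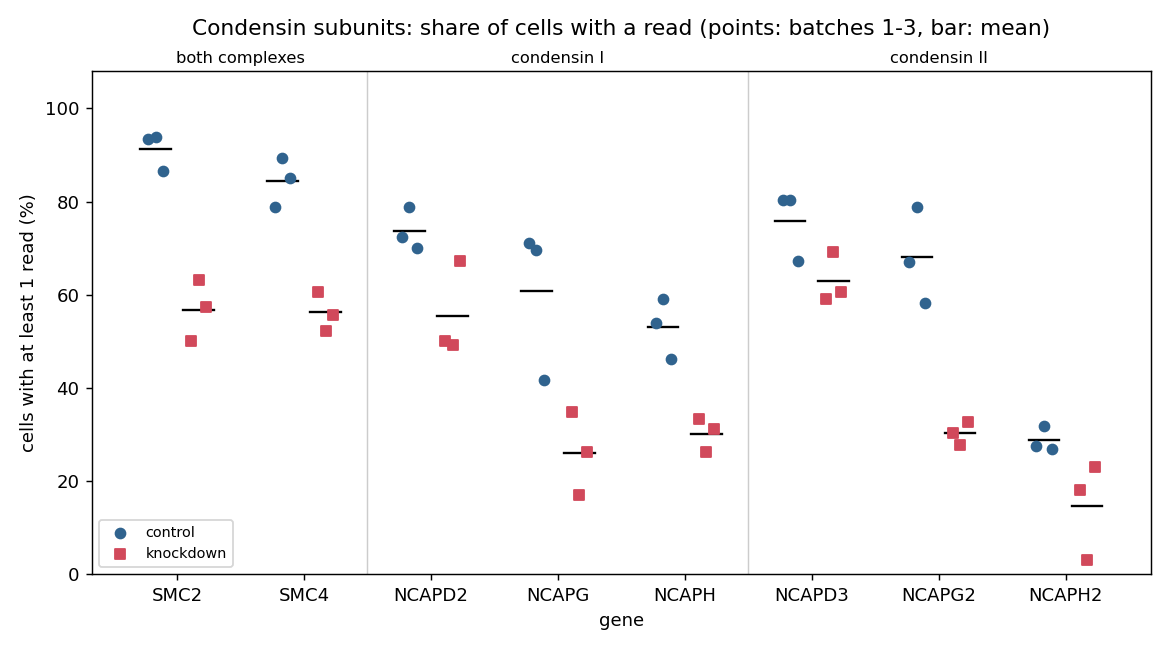
Percent of cells with at least 1 read of each subunit in control (circles) and knockdown (squares) batches, with bars at the mean. NCAPD3 is the subunit whose arms overlap, and NCAPG2 in knockdown lies between 27.7% and 32.8%.

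A few cells gave many of the reads where levels were low. One cell held 43.2% of the NCAPG reads of knockdown batch 2 and 39.2% of the SMC2 reads of that batch, and for NCAPH2 in the same batch one cell held 61.9% of 21 reads. In control, the largest share taken by a cell was 12.5% for SMC2, 13.7% for NCAPG and 45.0% for NCAPH2. Whole sets of subunits were rarer in knockdown cells as well. Of 8 subunits, a control cell had a read of 5.36 ± 0.504 and a knockdown cell of 3.33 ± 0.234 (mean of batch means, SD, n = 3). After thinning the means were 4.18 ± 0.588 and 2.30 ± 0.308. All 5 subunits of condensin I had a read in 74 of 209 control cells and 21 of 192 knockdown cells, and all 5 of condensin II in 47 and 9. With NCAPH2, the subunit found in the fewest cells, left out, the rest of condensin II had a read in 115 and 30 cells. No control cell and 8 knockdown cells lacked a read of every subunit.

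Because condensin genes are known to be expressed with the mitotic program, the cells of each arm were sorted by 12 mitotic marker genes that include no condensin subunit (CCNB1, CCNB2, CDC20, PLK1, AURKA, BUB1, TTK, KIF20A, TPX2, CENPE, DLGAP5 and HMMR). A cell with at least 6 of the 12 at 10 CPM or more was counted as mitotic-program. This is a range of a score rather than a cell type, and 31 of the 401 cells had 5 or 6 markers, at the boundary. The class held 38.2%, 56.1% and 31.3% of control cells in batches 1, 2 and 3 (29 of 76, 37 of 66 and 21 of 67) and 21.2%, 10.8% and 16.4% of knockdown cells (14 of 66, 7 of 65 and 10 of 61). Every knockdown batch was below every control batch, and the part of this share in the condensin levels of the summed libraries was not tested.

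In the control arm, all 8 subunits were higher in mitotic-program cells than in other cells in each of the 3 batches, with no overlap for 8 of 8 (9.24% of all genes). SMC2 was at 327, 295 and 275 CPM in mitotic-program cells of batches 1, 2 and 3 and at 67.5, 91.6 and 55.1 CPM in other cells. NCAPG was at 143, 179 and 136 CPM in mitotic-program cells and at 17.0, 14.8 and 9.31 CPM in others. NCAPG2 was at 127, 75.9 and 91.8 CPM and at 17.0, 58.0 and 23.7 CPM. On the log2 scale, of these 3 the step was largest for NCAPG and smallest for NCAPG2, whose other cells of batch 2 came near its mitotic-program cells. In other control cells of batches 1, 2 and 3, 1 cell gave 53.1%, 59.7% and 87.5% of the NCAPG reads. Without that cell the NCAPG levels there were 8.29, 6.08 and 1.19 CPM.

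Averaged over batches, SMC4 went from 34.2 ± 17.3 CPM in other control cells to 202 ± 20.3 CPM in mitotic-program cells (SD, n = 3), and NCAPD2 from 25.8 ± 7.65 to 122 ± 12.0. NCAPH went from 17.2 ± 11.3 to 84.3 ± 21.0 CPM, NCAPD3 from 32.8 ± 3.41 to 115 ± 34.9, and NCAPH2 from 2.57 ± 0.836 to 7.52 ± 2.66. Between 68.7% (NCAPH2) and 89.4% (NCAPG) of a subunit's control reads lay in the 87 mitotic-program cells. Every one of those 87 cells had a read of SMC2 and of SMC4.

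On the log2 scale the control-arm differences were 2.02 for SMC2 (SE 0.262, edgeR adjusted p = 0.0640), 2.64 for SMC4 (SE 0.425, 0.114) and 3.43 for NCAPG (SE 0.738, 0.222). They were 2.20 for NCAPD2 and 2.49 for NCAPH, and 1.69, 1.68 and 1.47 for NCAPD3, NCAPG2 and NCAPH2, with edgeR adjusted p between 0.106 and 0.893. None of the 8 passed an adjusted p of 0.05, where 0.0848% of 20037 genes passed as higher and 0% as lower. At an unadjusted p under 0.05 were 7 of the 8 (6.96% of all genes), all but NCAPH2. Under 6 of the 10 alternatives 1 to 3 subunits passed, SMC2 each time, where 0.15% to 0.369% of all genes passed in either direction. Over all 10, SMC2 had an edgeR adjusted p of 0.00935 (no block) to 0.677 (without batch 1). Leaving out any 1 batch left 0% of all genes passing. The median over the 8 was 2.11, against -0.02 over all genes.

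In the knockdown arm the same comparison gave SMC2 at 293, 314 and 240 CPM in mitotic-program cells and at 22.9, 17.0 and 31.5 CPM in other cells. NCAPD3 was at 82.3, 110 and 96.7 CPM in the class and at 19.0 ± 8.89 CPM in other cells (SD, n = 3), with a highest library of 28.6. For both genes every library of the class lay above every other library. One of the 7 mitotic-program cells of knockdown batch 2 gave 55.7% of their 2551 SMC2 reads, and without it the level there was 172 CPM, still above all libraries of other cells. For NCAPD3, 1 cell gave 76.1% of the reads of the class in batch 2, and 1 cell gave 65.1% in batch 3. Without these cells its levels there were 32.3 and 38.4 CPM, close above the 28.6 CPM of the highest library of other cells. The median cell of the class was at 13.3 CPM of NCAPD3 in batch 2 and 32.1 CPM in batch 3. Both genes passed the test, SMC2 with a log2 difference of 3.60 (SE 0.282, edgeR adjusted p = 0.00772) and NCAPD3 with 2.43 (SE 0.271, edgeR adjusted p = 0.0241). They were 2 of 8, where 0.329% of all genes passed as higher and 0.02% as lower. SMC2 kept its call without batch 3 (edgeR adjusted p = 0.0306) but not without batch 1 (0.224) or batch 2 (0.0954), and NCAPD3 lost it without any 1 batch (edgeR adjusted p of 0.144 to 0.313) and with the class at 8 of 12 markers (0.269).

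The other subunits of the knockdown arm had log2 differences of 2.85 for SMC4 (SE 0.424, edgeR adjusted p = 0.0574), 5.38 for NCAPG (SE 0.865, 0.0706), 2.52 for NCAPD2 (SE 0.463, 0.0957) and 2.60 for NCAPG2 (SE 0.497, 0.108). NCAPH had 2.55 (SE 0.929, edgeR adjusted p = 0.402). The value of NCAPG rests on few reads in other cells, with 13 in batch 2, and 1 cell gave 73.3% of the 821 in batch 3. NCAPH2 had -0.58 (SE 1.02, edgeR adjusted p = 0.873), the single subunit with a fitted difference below 0, although its level was higher in the class in 2 of 3 batches and the means were close, 2.73 ± 2.38 CPM in the class and 2.51 ± 1.92 CPM in other cells (SD, n = 3). It had 0 reads in the 7 mitotic-program cells of knockdown batch 2, which allows up to 3 counts, or 0.369 CPM, in that library of 8123999 reads, and a share of up to 42.9% of its cells, for counting error only. Apart from NCAPH2, mitotic-program libraries lay above all others for 7 of 8 (6.12% of all genes), and 7 of 8 had an unadjusted p under 0.05 (10.6% of all genes). The median over the 8 was 2.57, against -0.36 over all genes. Without the arm-by-batch block, 3 subunits passed in control (and 0.369% of all genes, in either direction) and 5 in knockdown (1.06%).

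Along the marker count, SMC2 was already raised in level among control cells with 2 to 5 markers, and so was NCAPD3. Control cells with 0 to 1, 2 to 5, 6 to 9 and 10 to 12 markers numbered 69, 53, 38 and 49, and their SMC2 levels were 33.0 ± 1.77, 116 ± 21.7, 276 ± 10.3 and 314 ± 36.4 CPM (SD, n = 3). NCAPG went through 5.34 ± 6.75, 22.2 ± 17.8, 91.3 ± 28.7 and 199 ± 70.2 CPM, and its highest level was at the most markers. SMC4 went through 14.6 ± 5.25, 57.5 ± 39.3, 170 ± 37.9 and 224 ± 6.02 CPM. NCAPD3 rose from 13.3 ± 6.15 CPM at 0 to 1 markers to 58.5 ± 12.9 CPM at 2 to 5. It reached 121 ± 34.1 CPM at 6 to 9 markers and 116 ± 48.3 CPM at 10 to 12, so its last step was within the spread. NCAPG2 was at 14.8 ± 14.4, 54.9 ± 23.8, 68.0 ± 15.3 and 118 ± 33.3 CPM.

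**Figure D3:**
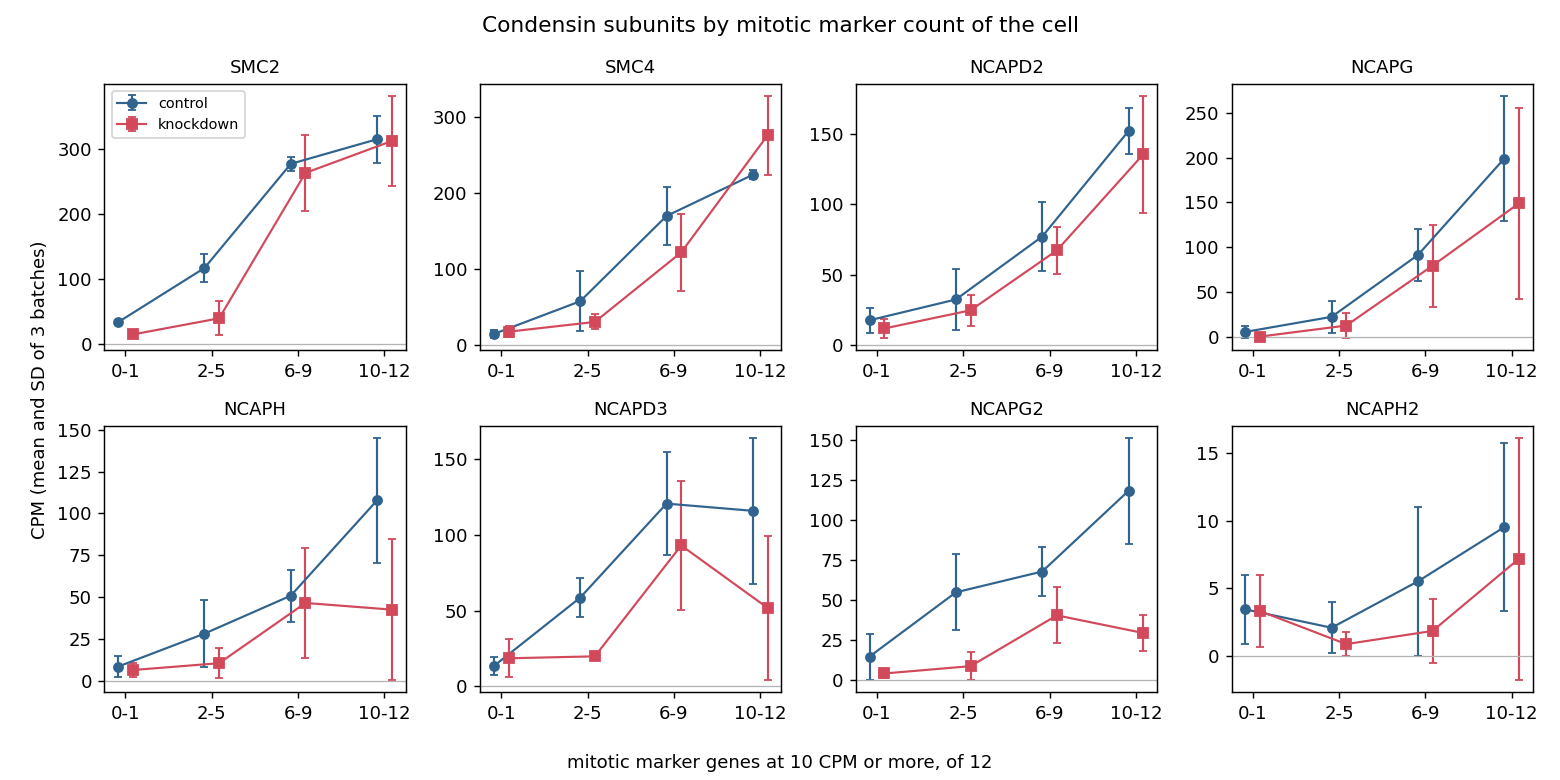
Level of each subunit (CPM, mean and SD of 3 batches, linear axes that differ between panels) in cells grouped by how many of 12 mitotic markers reach 10 CPM, for control (circles) and knockdown (squares). In control the mean of every subunit is higher at 10 to 12 markers than at 0 to 1, and the 19 and 12 knockdown cells of the last bins have wide error bars.

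Among knockdown cells the bins held 112, 49, 19 and 12 cells, so the last 2 are thin. SMC2 was at 14.1 ± 5.38 and 38.9 ± 26.1 CPM with 0 to 1 and 2 to 5 markers, below the control bins, and at 263 ± 58.4 and 312 ± 69.6 CPM with 6 to 9 and 10 to 12, where the bins overlapped control. NCAPG2 was at 4.17 ± 2.59, 8.77 ± 8.57, 40.5 ± 17.6 and 29.5 ± 11.5 CPM, with a mean below control in every bin.

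Compared between the arms within a class, again as a description, SMC2 had unlike values in the 2 classes and NCAPG2 was low in both, although no gene passed the test of a difference between classes. In other cells SMC2 was lower in knockdown in all batches (values above), with a log2 fold change of -1.69 (SE 0.249, edgeR adjusted p = 0.0119), whereas in mitotic-program cells it was -0.12 (SE 0.242, edgeR adjusted p = 0.912). That value in mitotic-program cells includes the batch 2 library in which 1 cell gave 55.7% of the reads, and it was -0.23 without batch 2, -0.0393 without batch 1, and -0.33 and -0.25 with the class at 4 and 8 of 12 markers. For NCAPG2, in mitotic-program cells the level was 127, 75.9 and 91.8 CPM in control and 38.3, 48.4 and 19.8 CPM in knockdown, and in other cells 17.0, 58.0 and 23.7 CPM and 8.43, 5.15 and 3.74 CPM. The arms of NCAPG2 did not overlap in either class, with log2 fold changes of -1.51 (SE 0.493, edgeR adjusted p = 0.359) and -2.58 (SE 0.511, edgeR adjusted p = 0.0604).

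Within mitotic-program cells, all 8 log2 fold changes were below 0, from -0.12 for SMC2 to -1.51 for NCAPG2 and NCAPH2, with -0.30 for NCAPD3, -0.38 for SMC4, -0.60 for NCAPD2, -0.70 for NCAPG and -0.89 for NCAPH. None passed, where 0.02% of genes passed as higher and 0% as lower, and 1 of 8 had an unadjusted p under 0.05 (10.6% of all genes). The arms did not overlap for 3 of 8, NCAPD2, NCAPG2 and NCAPH2 (8.05% of all genes). For NCAPH2 this rests on few reads, 80, 0 and 56 in knockdown batches 1, 2 and 3, with 78.6% of those of batch 3 from 1 cell. For NCAPG2, 1 of the 7 cells of knockdown batch 2 gave 62.3% of the reads.

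Among other cells, 1 of 8 passed as lower, SMC2 (0.274% of genes lower and 0.235% higher), and 3 of 8 had an unadjusted p under 0.05 (8.41% of all genes). The arms did not overlap for 3 of 8, SMC2, NCAPD3 and NCAPG2 (6.19% of all genes). The remaining log2 fold changes ran from -1.60 for NCAPG to -0.11 for NCAPH2, with -1.32 for NCAPH, -0.91 for NCAPD3, -0.80 for NCAPD2 and -0.73 for SMC4. These values moved widely: without 1 batch they reached -0.36 for NCAPH (batch 1), -0.37 for NCAPD2 and -0.36 for SMC4 (batch 2) and -3.56 for NCAPG (batch 3), and with the class at 4 of 12 markers NCAPD3 was at -0.0327. Outside the class, a larger share of control cells had some markers, since 53 of 122 control and 49 of 161 knockdown cells there had 2 to 5 markers. SMC2 lost its call when any 1 batch was left out (edgeR adjusted p of 0.127 to 0.497). Of the NCAPG reads of other cells, 1 cell gave 87.5% in control batch 3 and 1 cell 73.3% in knockdown batch 3.

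The difference of the class effect between the arms was 1.58 for SMC2 (knockdown minus control, SE 0.363, edgeR p = 0.00303, adjusted p = 0.945). It was 1.95 for NCAPG (SE 1.04, edgeR adjusted p = 0.945), 0.92 for NCAPG2 (SE 0.678, edgeR adjusted p = 0.956) and 0.74 for NCAPD3 (SE 0.365, edgeR adjusted p = 0.945). No gene passed in either direction (0% of 20037), and 1013 genes, or 5.06%, had an unadjusted p under 0.05, with SMC2 the 1 subunit among them. Another tool was not run on this difference.

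**Figure D4:**
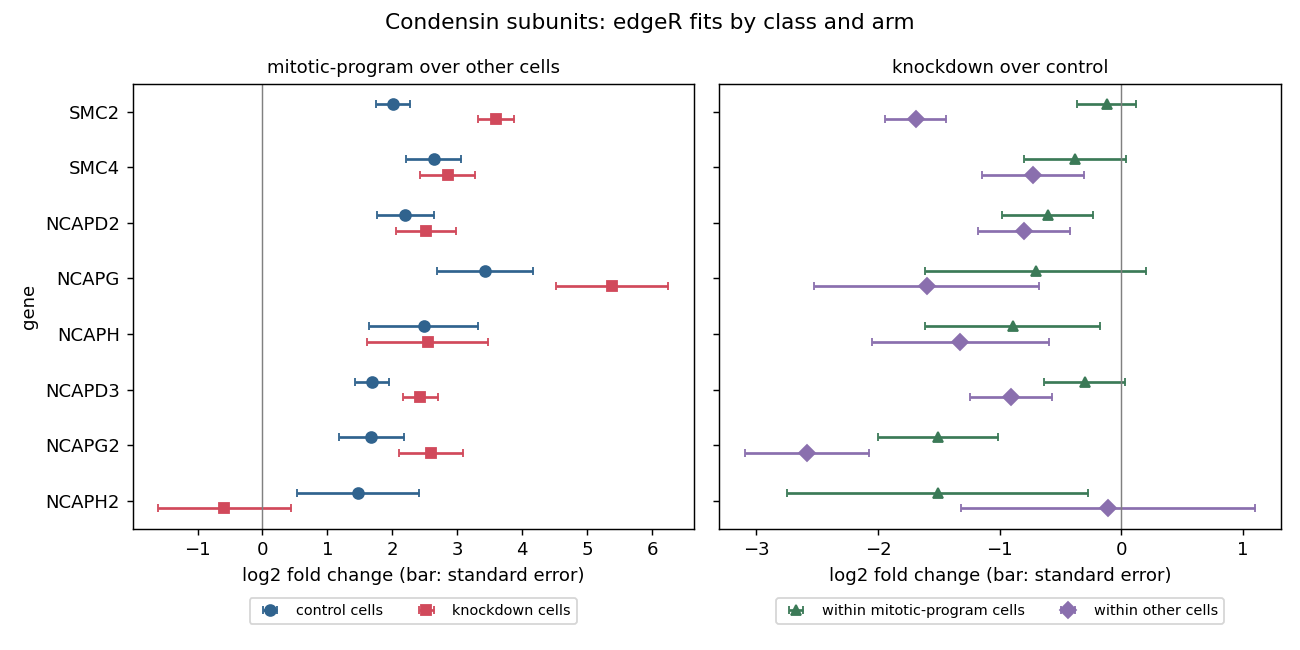
Log2 fold change (bar: standard error) of each subunit between mitotic-program and other cells of each arm (left), and between knockdown and control within each class (right). SMC2 is at -0.12 in mitotic-program cells and -1.69 in other cells, while NCAPG2 is below 0 in both classes.

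Across single cells, subunits varied together within a batch. Over the 28 pairs, the median Spearman correlation (mean of the 3 batches) was 0.472 in the 209 control cells and 0.315 in the 192 knockdown cells. SMC2 and SMC4, the partners of the ring, had the highest value in control, 0.602, and 0.30 in knockdown, whereas NCAPG2 and NCAPH2 had the lowest in control, 0.176. In cells outside the mitotic-program class the medians were 0.123 over 122 control cells and 0.112 over 161 knockdown cells. The points share the depth and quality of their cell, and reads per cell had correlations of -0.00659 to 0.0934 with the subunits in control and 0.0199 to 0.198 in knockdown.

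**Figure D5:**
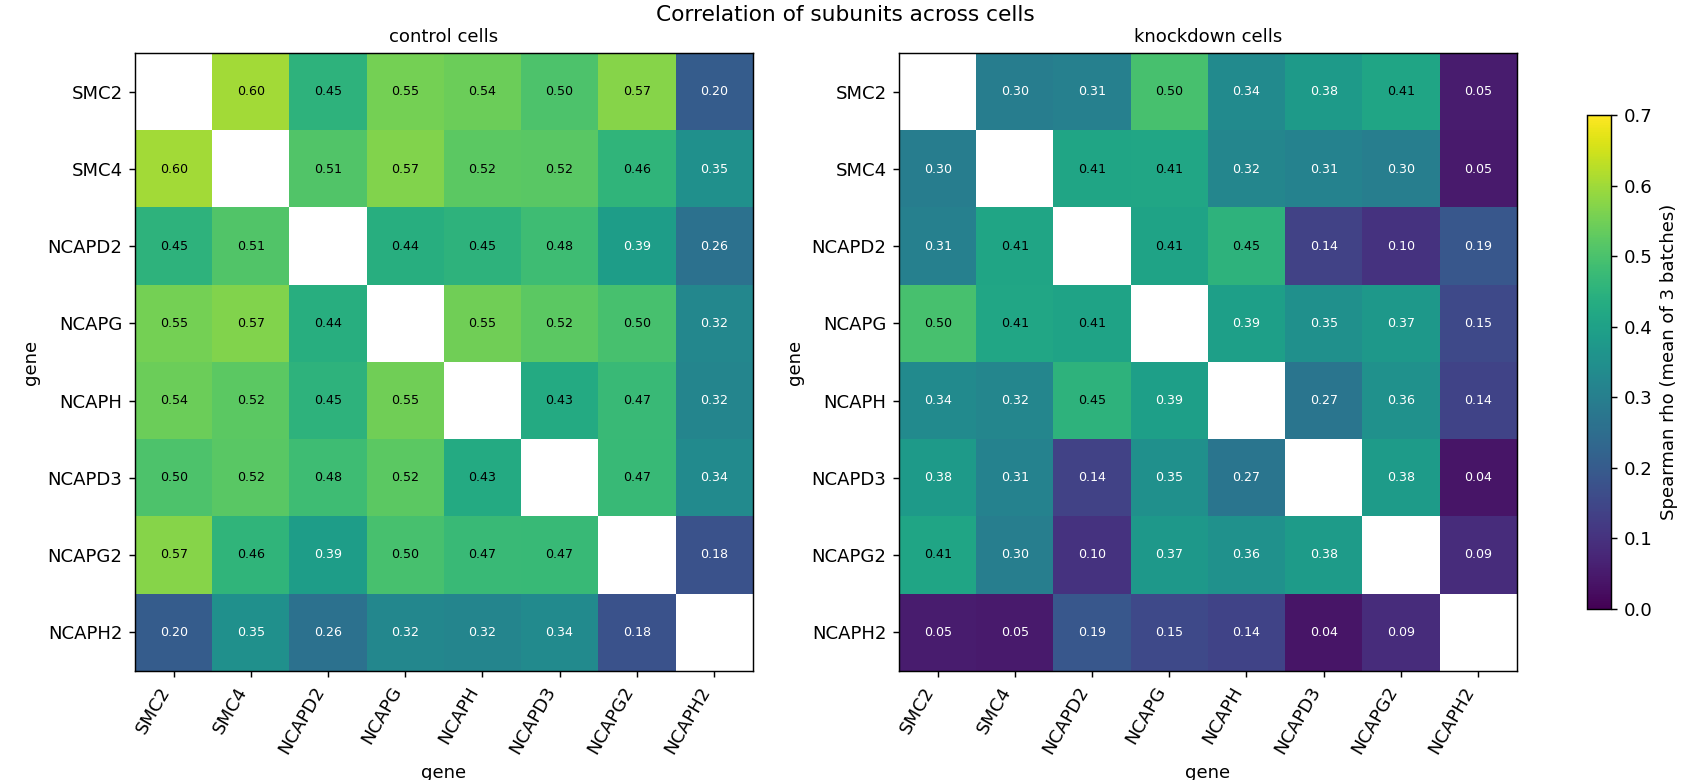
Spearman correlation of each pair of subunits across cells (colour and number, mean of 3 batches) in 209 control and 192 knockdown cells. Control values are highest for SMC2 with SMC4 and lowest in the row of NCAPH2.

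SMC4 (0.751) and SMC2 (0.742) had the highest correlation with the mean mitotic-program level in control cells, and condensin I subunits had 0.663 for NCAPG and 0.610 for NCAPD2, with NCAPH just below. For NCAPD3 and NCAPG2 the correlation with the S phase genes, 0.647 and 0.599, was higher than that with the mitotic program, 0.583 and 0.558. NCAPH2 had 0.324 with the S phase genes and 0.302 with the mitotic program. In the knockdown arm NCAPG2 had 0.368 with the S phase genes and 0.376 with the mitotic program, and there SMC4, NCAPD2 and NCAPD3 had the higher value with the S phase genes. These are descriptions over the cells of an arm, and the differences between them were not tested.

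The genes most like the family were found among 10299 genes with a mean of at least 5 CPM, by the within-batch correlation with the mean log2 level of the 8 subunits over 209 control cells. SPC24, a subunit of the NDC80 kinetochore complex, came first (0.802), followed by NUSAP1, a spindle protein (0.786), UBE2T, a ubiquitin-conjugating enzyme of DNA crosslink repair (0.782), BIRC5, the survivin subunit of the chromosomal passenger complex (0.770), and MKI67, the chromosome surface protein (0.761). SPC24 was also the gene most like NCAPG2 alone (0.619).

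Related complexes were set beside condensin in the same fits. Between knockdown and control, 13.5% of all genes had an unadjusted p under 0.05 in edgeR. DESeq2 called 5.39% of the genes it tested, and equal weight per cell 6.51%, in either direction. Of 14 cohesin genes, which hold sister chromatids together, 0 passed between knockdown and control (edgeR, 5 at an unadjusted p under 0.05, against 4 calls by DESeq2 and 4 with equal weight per cell), with a median of -0.38. Of 6 genes of the SMC5/6 complex, which acts in DNA repair, 0 passed (edgeR, 3 at an unadjusted p under 0.05, against 1 by DESeq2 and 2 with equal weight per cell), with a median of -0.07. The medians of these lists lay nearer to the 0.01 of all genes than the -1.34 of condensin, and whether the lists differ was not tested. The largest changes of the cohesin list were those of ESCO2, at -1.09 on the log2 scale, and CDCA5, at -1.01 (edgeR adjusted p of 0.202 and 0.203). ESCO2 was at 63.9 ± 8.02 CPM in control and 31.6 ± 14.4 CPM in knockdown, and CDCA5 at 16.1 ± 4.08 and 8.46 ± 0.678. STAG2, a cohesin subunit, was at 186 ± 31.6 CPM in control and 117 ± 11.5 CPM in knockdown (edgeR adjusted p = 0.108). SMC1A was at 157 ± 23.4 and 92.1 ± 17.1 (edgeR adjusted p = 0.111).

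Of 16 regulators and partners of condensin, 0 passed in that contrast (edgeR, 7 at an unadjusted p under 0.05, against 5 by DESeq2 and 7 with equal weight per cell), with a median of -1.21. INCENP had the largest change of this list, -3.07 on the log2 scale (edgeR adjusted p = 0.238), from 5.02 ± 2.07 to 0.632 ± 0.701 CPM. MKI67 was at 107 ± 27.0 CPM in control and 31.9 ± 16.9 CPM in knockdown (edgeR adjusted p = 0.108). CDK1, the mitotic kinase that phosphorylates condensin, was at 595 ± 197 CPM in control and 189 ± 101 CPM in knockdown (edgeR adjusted p = 0.135). TOP2A, the topoisomerase of the chromosome axis, was at 177 ± 55.8 and 30.4 ± 24.1 (edgeR adjusted p = 0.136). Of the 12 mitotic markers 0 passed (edgeR, 6 at an unadjusted p under 0.05, against 2 by DESeq2 and 10 with equal weight per cell). All 12 had a log2 fold change below 0, with a median of -1.28, close to the -1.34 of condensin. Of 22 S phase genes, 21 had a log2 fold change below 0, with a median of -0.87, and 18 had an unadjusted p under 0.05 in edgeR. The 2 that passed were both lower in knockdown. SLBP, the histone mRNA binding protein, fell by 2.02 on the log2 scale (edgeR adjusted p = 0.0114). RRM2, a ribonucleotide reductase subunit, fell by 1.98 (edgeR adjusted p = 0.0251). With batch as a block, the edgeR adjusted p was 0.0977 for SLBP and 0.153 for RRM2, and leaving out 1 library took it up to 0.0733 and 0.115. DESeq2 called 17 of the 22 as lower (5.39% of the genes it tested, in either direction). In edgeR 0.384% of all genes passed as lower in this contrast, and 13.5% had an unadjusted p under 0.05.

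Between classes of the knockdown arm, 3 of 14 cohesin genes passed as higher in mitotic-program cells (0.329% of all genes). These were CDCA5 (sororin, which stabilises cohesin), at 42.0 ± 16.0 CPM against 2.07 ± 0.362 in other cells, RAD21 (its kleisin), at 325 ± 161 against 118 ± 24.2, and SMC3, at 253 ± 10.4 against 116 ± 5.40 (edgeR adjusted p of 0.0275, 0.0353 and 0.0248). Among the 14 regulators that are not class markers, TOP2A, BIRC5 and CDK1 passed, with log2 differences of 6.40, 4.00 and 3.39 (edgeR adjusted p of 0.0116, 0.0240 and 0.0274). All 6 genes lost their call without batch 1 and without batch 2, and TOP2A alone kept it without batch 3 (edgeR adjusted p of 0.0114 to 0.291). In the control arm 0 genes of these lists passed in edgeR, with medians of 0.53 and 2.88. At an unadjusted p under 0.05 were 6 of 14 cohesin genes and 9 of 14 regulators (6.96% of all genes). None of the 6 SMC5/6 genes passed in either arm in edgeR. At an unadjusted p under 0.05 were 0 of them in control and 2 in knockdown (10.6% of all genes in knockdown). Their medians were 0.17 and 0.23, against 2.11 and 2.57 for condensin.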

How the data were processed

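Single-cell RNA libraries were made on a Fluidigm C1 device, and capture sites without exactly 1 cell, or with a cell stained as dead, were left out under the microscope, per the labels' protocols; no doublet caller was run. The deposited values are counts of reads per gene and cell, whole and not normalized, without molecular identifiers. FastQC 0.11.3, TopHat2 2.1.0, HTSeq 0.6.1, edgeR 3.2.2 and genome build GRCh38.p3 are named, per the submitters' processing notes; no source used here gives their order, the annotation release or the strand setting. Of 414 samples, 401 had a column of the table and a label naming 1 cell; 4 columns of values were not used, and no 2 cells had identical columns. Identifiers were named through the gene name table (34891) and GENCODE 29 (257).

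Counts were summed per arm and batch (6 libraries) and per arm, batch and class (12 libraries). Fits were made in R 4.3.3 with edgeR 4.0.16 (quasi-likelihood) and limma 3.58.1, with TMM scaling, filterByExpr (minimum count 10), robust dispersions and Benjamini-Hochberg adjustment over all 20326 or 20037 genes tested; a call is an adjusted p under 0.05. Class effects had the arm-by-batch library as a block; the arm contrasts had none. The code was tested on simulated data. The labels' word Batch pairs the arms; the deviations from the arm means of libraries that share a number correlated at 0.0551, -0.00369 and -0.0019. Alternatives were DESeq2 1.42.0, limma on the mean of log2(CPM + 1), RLE scaling, no filter, other class thresholds, thinning to 100000 reads, leaving out cells over 20% mitochondrial reads or each library. Correlations used log2(CPM + 1). Other steps used Python 3.11.15 (pandas 2.3.3, numpy 2.4.6, scipy 1.17.1) and, for plots, matplotlib 3.10.9.

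The members, lists and tests were chosen with earlier results of these data known. All 8 subunits are named, with up to 4 genes of each related complex or regulator list and up to 3 of the mitotic and S phase lists, called genes first and then by size of change. Promoter sequences are from RefSeq (GRCh38.p14).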

Additional observations from a re-analysis of the deposited data

How the results depend on the processing

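Under several settings the counts of called genes moved, and the cause was not tested. Between knockdown and control 158 genes passed, against 38 with batch as a replicate block (37 of them shared), 309 with no low-count filter, 1873 with DESeq2 and 1324 with equal weight per cell, and 46 to 69 without 1 library. Between classes of the control arm 17 genes passed, against 74 without the replicate block, 55 without the filter, 68 and 30 with the class at 4 and 8 of 12 markers, 36 with the class set on thinned cells, 58 without cells over 20% mitochondrial reads and 0 to 0 without 1 batch. In the knockdown arm 70 passed, against 213 without the block, 127 without the filter and 3 to 17 without 1 batch. The difference between arms had 0, against 1 at 4 and 1 at 8 of 12 markers. Within mitotic-program cells 4 passed, against 1 with batch as a replicate block, 21 without the filter, 21 and 2 at 4 and 8 of 12 markers and 0 to 0 without 1 batch. Among other cells 102 passed, against 55 at 8 of 12 markers and 0 to 3 without 1 batch. The direction of a subunit turned in 13 of its refits, none of them called. NCAPH2 between classes of the knockdown arm was 0.0899 without the block and -1.19 to 0.14 without 1 batch (0.14 without batch 2). For the difference between arms, NCAPD2 was -0.36 at 4 of 12 markers and -0.17 (without batch 2) to 0.97 without 1 batch, NCAPD3 was -0.50 at 4 of 12, and NCAPG2 was -0.0505 (without batch 2) to 1.71 without 1 batch. NCAPH was -0.70 at 4 of 12, -0.63 on thinned cells, -0.0958 without cells over 20% mitochondrial reads and -1.42 (without batch 1) to 0.83 without 1 batch. Between arms, NCAPD3 in mitotic-program cells was -0.54 to 0.0554 without 1 batch (0.0554 without batch 1), and NCAPH2 in other cells was 0.0058 without cells over 20% mitochondrial reads and -0.82 to 0.47 without 1 batch (0.47 without batch 2). Other refits kept the direction, 430 with the same call, 37 newly called and 16 no longer called. The replicate block changed the call of NCAPG2 between arms (edgeR adjusted p = 0.0535) and of no other subunit there. With 7 to 14 mitotic-program cells per knockdown batch, the number of cells limits what can be seen within that class.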
